A study of Mus musculus with 16 samples.

Results

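The comparison asked what BMP4 did to the induced pluripotent stem cell (iPSC) part of assembled embryo-like structures. It was made up by library name: 2 libraries of the iPSC part with BMP4 were set against 2 of the iPSC part without it, which is 4 of the 16 mouse libraries of the study. In the study, iPSC carrying GFP and trophoblast-lineage stem cells (TSC, called trophectoderm stem cells in the series title) carrying RFP were grown alone or mixed, so that a green and a red colony joined into a single structure. All cultures, treated or not, received 12.5 ng/ml FGF4 and 500 ng/ml heparin on 5% Matrigel and were collected on day 3. BMP4 was added to the treated ones for the last 24 hours, and its dose is not known here. Structures were chosen by fluorescence, pulled apart by hand, and each part became a Smart-seq2 library of its own, so that 1 library stands for 1 colony part and not for a population of structures. The groups used below are the assembled iPSC part with BMP4 (treated part), the assembled iPSC part without BMP4 (untreated part), iPSC alone with and without BMP4, and the TSC part with and without BMP4, with 2 libraries each. Whether replicates of a group came from separate cultures is not stated, so p-values cover only the spread among the libraries themselves.

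Bone morphogenetic proteins bind paired type I and type II serine/threonine kinase receptors, which phosphorylate SMAD1, SMAD5 and SMAD9. These enter the nucleus with SMAD4 and switch on targets such as the Id genes, which encode inhibitors of basic helix-loop-helix factors, and the inhibitory Smad6 and Smad7, which damp the same pathway. In the mouse embryo BMP4 comes from the extraembryonic ectoderm next to the epiblast, where it is needed for the primitive streak, mesoderm and primordial germ cells, and in cultured human pluripotent cells it is also known to turn on trophoblast and amnion genes.

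Levels are deposited FPKM, which are scaled by transcript length and by library total, and a pair of values is always replicate 1 followed by replicate 2. Differences are on the log2(FPKM + 1) scale, treated minus untreated, with the standard error (SE) from limma and a p-value adjusted by the Benjamini-Hochberg method over 13406 genes, called at 0.05. This scale understates the change of genes with low levels. The SE and p use a spread shared over all groups of the study, TSC groups included, and not that of the treated pair itself. Depth is unknown, so no counting interval can be given.

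The 2 treated libraries differed from each other in many genes, and this touches most of what follows. Across genes they correlated at Pearson's r = 0.929, against 0.965 for the 2 untreated libraries, and 1768 genes lay more than 2-fold apart in the treated pair, against 557 in the untreated pair. The other 6 groups had r between 0.942 and 0.973, and of the 8 groups TSC alone without BMP4 had more genes apart (2083) than the treated pair. To describe the difference, 104 genes that were much higher in the untreated TSC part than in the untreated iPSC part, and 82 that were much lower, were taken after the values were seen. The 104 TSC part genes stood at a median of 3.74% of their untreated TSC part level in treated replicate 1 and 29.9% in treated replicate 2, against 3.12% and 2.78% in the untreated iPSC parts. In iPSC alone the same median was 4.66% and 8.74% with BMP4 and 4.43% and 3.62% without it. Treated replicate 2 was more than 2-fold above replicate 1 for 78 of these 104 genes, and replicate 1 above replicate 2 for 1, beside 7.30% and 5.89% of all genes. The 82 iPSC part genes stood at medians of 82.0% and 59.2% of their untreated iPSC part level in the treated libraries, against 93.3% and 107% in the untreated libraries. The levels of both gene sets in the untreated iPSC parts follow from how the genes were chosen, so the contrast with those parts is built in. Between the 2 treated libraries, replicate 2 carried TSC part genes at higher levels than replicate 1.

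Xist and Y-linked genes, also chosen after their values were seen, differed between the iPSC and TSC parts and were read in the same libraries. Xist, the RNA that coats an inactive X chromosome, was at 0.0574 and 1.99 FPKM in the treated iPSC parts, against 0.638 and 0.0260 in the untreated ones, while the TSC part with BMP4 had 12.2 and 9.46; without strand, its reads cannot be told from those of Tsix, which lies on the other strand. The Xist level of treated replicate 2 was 18.4% of the TSC part mean, and that of Elf5 24.0%. Y-linked Ddx3y, an RNA helicase, was at 5.58 and 4.22 FPKM in the treated iPSC parts, against 6.51 and 5.59 in the untreated ones, and at 0.0349 and 0.0841 in the TSC part with BMP4. Eif2s3y, another Y-linked gene, varied more, with 48.2 and 5.75 FPKM in treated parts against 16.1 and 0.0550 in untreated parts. Fewer cells of a type and less RNA per cell cannot be told apart in such bulk libraries, and the part of TSC RNA in the results below was not tested. Among cell type markers, those of trophoblast (9 genes, of which Tpbpa is listed at 0 in every library) summed to 41.9 and 106 FPKM in treated parts, against 8.91 and 9.86 in untreated parts. Pluripotency markers (5 genes) summed to 334 and 752 FPKM against 577 and 633 in untreated parts, but the TSC part also reached 160 and 595 with BMP4 and 729 and 587 without it, so the sum does not tell the parts apart. The defining marker Pou5f1 was at 49.5 FPKM or more in all 4 libraries, against 0.137 and 2.10 in the TSC part with BMP4 and 2.33 and 13.2 in that without it. Mesoderm markers (5 genes) summed to 544 and 106 FPKM in treated parts against 261 and 284. Markers of extraembryonic endoderm (7 genes) reached at most 4.85 FPKM and those of fibroblasts (5 genes) at most 3.32 in any of the 4 libraries.

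With both libraries of each group, limma called 1 gene higher in treated parts (0.00746% of the genes tested) and 0 lower. At an unadjusted p under 0.05, 757 genes were higher (5.65%) and 292 lower (2.18%). The libraries of the groups did not overlap for 2989 genes in the higher direction (22.3%) and 2054 in the lower direction (15.3%), and 55.5% of all genes had a positive difference. With treated replicate 1 alone against the untreated pair, 27 genes were called higher and 13 lower (0.201% and 0.0970%), and with treated replicate 2 alone 42 higher and 2 lower (0.313% and 0.0149%). In these fits the lone library is assumed to vary like the other groups. No member of the gene lists below passed the adjusted threshold in the comparison of both libraries, and their values are given as such.

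The 1 gene called was Gm24151, annotated as a small nucleolar RNA, a class that guides chemical changes on other RNAs. It had 312 and 73.2 FPKM in treated parts and was listed at 0 in both untreated parts and in each of the other 12 libraries, with a difference of 7.25 ± 0.46 (SE), whose size depends on the pseudocount, and a limma adjusted p of 1.38e-05. It passed the filter only through the treated libraries, and its SE and p rest on groups whose values are all 0, so they are a description and not support for a difference. GENCODE M21 places it on GRCm38 at chr11:62776985-62777125 on the plus strand, where it overlaps the protein-coding gene Zfp286 on the other strand, so without strand its reads cannot be told from those of Zfp286. It is 141 bases long, and its whole sequence is shown because it is the only gene called; no letters are in capitals:
Gm24151: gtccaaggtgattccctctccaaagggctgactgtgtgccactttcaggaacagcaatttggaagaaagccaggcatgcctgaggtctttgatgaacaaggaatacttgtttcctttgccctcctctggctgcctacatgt
In a fit of only the 4 libraries compared, its adjusted p was 0.733.

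All 14 BMP-SMAD target genes that could be tested had a higher group mean in treated parts, and a higher level in treated replicate 1 than in replicate 2. Of 19 listed targets, 14 were tested and 5 (Smad9, Dlx5, Atoh8, Grem1 and Nog) were too low. For 11 of the 14 the groups did not overlap, beside 22.3% of all genes in that direction. None was called, and 7 had an unadjusted p under 0.05 with a higher mean, beside 5.65% of all genes. The median difference was 0.86, beside 0.051 over all genes. It was 1.23 with treated replicate 1 alone and 0.39 with treated replicate 2 alone.

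The inhibitory SMADs separated the groups most evenly. Smad6, which blocks BMP receptors and SMAD1, had 4.28 and 3.19 FPKM in treated parts, against 1.06 and 0.741 in untreated parts, a difference of 1.31 ± 0.30 (limma adjusted p = 0.268). Smad7, the broader inhibitor of BMP and TGF-beta signals, had 9.45 and 7.93 FPKM in treated parts and 2.44 and 2.14 in untreated parts, a difference of 1.56 ± 0.33 (adjusted p = 0.240). For both, each treated library was above each untreated one, and the treated replicates were close. Bambi, a decoy receptor, showed less, at 7.67 and 4.59 FPKM in treated parts against 3.38 and 4.06 (0.56 ± 0.42).

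The Id genes were already high without BMP4. Id1 had 332 and 177 FPKM in treated parts and 177 and 174 in untreated parts, so that treated replicate 2 lay at the untreated level (0.47 ± 0.88, adjusted p = 0.957). Id2 had 293 and 263 FPKM in treated parts, against 132 and 181 in untreated parts (0.84 ± 0.42, adjusted p = 0.660). Id3 had 203 and 150 FPKM in treated parts and 135 and 152 in untreated parts, and its groups overlapped. Id4 was low throughout, at 1.48 and 0.572 FPKM against 0.846 and 0.432. Of the family, Id2 alone had both treated libraries clear of the untreated ones, since treated replicate 2 of Id1 exceeded them only marginally.

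The homeobox and T-box targets Msx1, Msx2 and Tbx3 had differences above those of the inhibitory SMADs and Id genes, and their treated libraries lay well apart. Msx1, a homeobox factor of early mesoderm and neural crest, had 54.0 and 6.75 FPKM in treated parts, against 3.68 and 5.33 in untreated parts (1.92 ± 0.77, adjusted p = 0.554). Its relative Msx2 had 18.6 and 4.77 FPKM in treated parts and 1.52 and 0.992 in untreated parts (2.25 ± 0.78, adjusted p = 0.446). Tbx3, a T-box factor active in both pluripotency and extraembryonic lineages, had 7.31 and 2.61 FPKM against 0.201 and 0.0438 (2.29 ± 0.55, adjusted p = 0.275). In all 3 the groups did not overlap, and replicate 1 was the higher treated library. Hey1, a Notch and BMP target that encodes a transcriptional repressor, had 2.34 and 0.719 FPKM in treated parts against 0.274 and 0.582, and the homeobox gene Hhex 3.39 and 1.71 against 1.15 and 0.658. Bmper, a secreted BMP-binding protein, had 2.59 FPKM in treated replicate 1 and 0.0631 in replicate 2, against 0.0382 and 0.0248 in untreated parts.

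**Figure D1:**
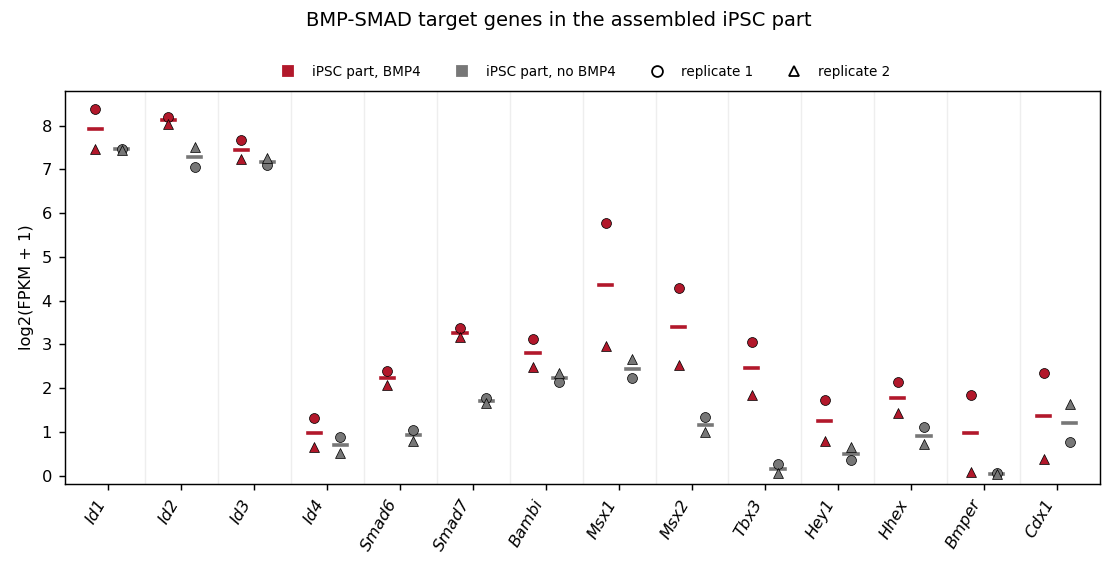
Levels of the 14 tested BMP-SMAD targets, as log2(FPKM + 1), in the 2 iPSC parts with BMP4 (red, left of each pair) and the 2 without it (grey). Circles are replicate 1, triangles replicate 2 and bars the group mean. The red circle lies above the red triangle for all 14 genes, and Smad6 and Smad7 have treated replicates close to each other.

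Promoters of target genes were read for short sequences known to bind SMAD proteins, chosen with the values in view. RefSeq promoters on GRCm38.p6 (250 bases before and 50 after the start) were at hand for 11 of the 19 listed targets. Searched on both strands were GGCGCC and GGAGCC, which are GC-rich elements bound by SMAD1 and SMAD5, the palindrome GTCTAGAC, and CAGACA, a box bound by SMAD4; none of the 4 contains another. GGAGCC stood in 9 of the 11 promoters, beside 30.8% of all 32851 promoters, and GGCGCC in 5 of 11, beside 11.9%. The 11 promoters include those of targets too low to test: GGCGCC stood in Grem1 and Smad9, and GGAGCC in Smad9. GTCTAGAC was found in 1 of 11, that of Smad6, beside 0.213% of all promoters, and CAGACA in 0 of 11, beside 21%. The 11 promoters had a median GC content of 70.0%, beside 52.7% over all, and GC-rich letters occur more often in such sequence. Such matches describe the letters only. The promoters of Smad6, Id2 and Msx2 are shown, 1 inhibitory SMAD, 1 Id gene and 1 homeobox gene with treated levels above both untreated ones, with the matches in capitals. They lie at chr9:64022010-64022309, chr12:25096043-25096342 and chr13:53472731-53473030, all on the minus strand and printed 5′ to 3′ along the gene:
Smad6: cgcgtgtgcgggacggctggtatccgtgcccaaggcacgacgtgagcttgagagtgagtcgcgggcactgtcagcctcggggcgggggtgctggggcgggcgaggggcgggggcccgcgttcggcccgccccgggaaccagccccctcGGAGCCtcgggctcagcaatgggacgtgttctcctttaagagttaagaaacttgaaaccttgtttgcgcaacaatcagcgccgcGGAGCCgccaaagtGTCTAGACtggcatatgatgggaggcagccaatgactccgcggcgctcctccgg
Id2: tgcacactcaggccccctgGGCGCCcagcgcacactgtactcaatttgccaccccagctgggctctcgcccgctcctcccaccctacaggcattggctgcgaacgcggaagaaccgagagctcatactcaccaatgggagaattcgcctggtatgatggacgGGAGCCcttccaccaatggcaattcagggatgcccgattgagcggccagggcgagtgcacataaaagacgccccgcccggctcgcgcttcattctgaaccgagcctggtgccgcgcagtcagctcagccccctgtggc
Msx2: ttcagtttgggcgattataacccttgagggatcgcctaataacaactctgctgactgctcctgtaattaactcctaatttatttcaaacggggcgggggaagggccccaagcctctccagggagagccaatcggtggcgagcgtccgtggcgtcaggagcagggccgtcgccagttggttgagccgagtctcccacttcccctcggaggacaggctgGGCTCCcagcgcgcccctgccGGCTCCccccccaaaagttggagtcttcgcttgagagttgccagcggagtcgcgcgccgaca
In the Smad6 promoter the palindrome follows a GGAGCC, and the matches of Msx2 are GGAGCC read on the other strand, as GGCTCC.

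Bmp4 itself was the pathway member that differed most. Its own transcript had 90.5 and 20.5 FPKM in treated parts, against 1.55 and 1.38 in untreated parts, a difference of 4.17 ± 0.82 (limma adjusted p = 0.240). Both treated libraries stood far above both untreated ones. The difference was 5.21 with treated replicate 1 alone and 3.12 with replicate 2 alone. The TSC part with BMP4 had 25.5 and 35.5 FPKM, which lie between the 2 treated iPSC parts. The other ligands, receptors and SMADs differed less. Of 16 listed, Bmp4 included, 13 were tested and 8 had a positive difference. Groups did not overlap in the higher direction for 2, Bmp4 among them, and in the lower for 0 (22.3% and 15.3% of all genes). The median difference, also with Bmp4 included, was 0.10, beside 0.051 over all genes. It was -0.021 with quantile normalization, 0.16 with treated replicate 1 alone and -0.036 with replicate 2 alone. Receptor Bmpr1a had 10.1 and 6.88 FPKM in treated parts against 8.43 and 10.3, and the shared partner Smad4 had 13.5 and 8.80 against 12.4 and 11.5. Bmp8b, a ligand of the extraembryonic ectoderm, had 0.852 and 10.9 FPKM in treated parts against 2.30 and 1.61, and 37.6 and 40.9 in the TSC part with BMP4. Fst, encoding the antagonist follistatin, had 66.7 and 17.2 FPKM against 61.6 and 39.8, and its groups overlapped.

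Of the trophoblast stem cell genes named below, some were higher in both treated libraries, some in replicate 2 alone, and Lgals3 in replicate 1 alone. The trophoblast stem cell list had 29 of 30 members with a positive difference and a median of 1.03. That median was 0.19 with treated replicate 1 alone and 1.77 with treated replicate 2 alone. For 14 of the 30 the groups did not overlap in the higher direction and for 1 in the lower direction, beside 22.3% and 15.3% of all genes, and 15 were more than 2-fold higher in treated replicate 2 than in replicate 1, against 2 the other way, beside 7.30% and 5.89% of all genes.

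Gata3, Tfap2c and Eomes belong to the genes higher in both. Gata3, a zinc finger factor that specifies trophoblast and amnion, had 12.5 and 6.02 FPKM in treated parts, against 0.749 and 0.892 in untreated parts (2.42 ± 0.48, limma adjusted p = 0.240). The TSC part with BMP4 had 8.55 and 9.18 FPKM, which lie between the 2 treated iPSC parts. Tfap2c, an AP-2 factor of trophoblast and germ cells, had 6.48 and 6.01 FPKM in treated parts and 0.842 and 1.42 in untreated parts (1.78 ± 0.39, adjusted p = 0.240). Eomes, a T-box factor of both trophoblast stem cells and the primitive streak, had 16.5 and 18.1 FPKM in treated parts against 4.19 and 3.66 (1.90 ± 0.35, adjusted p = 0.240). In these 3 the groups did not overlap. Cdx2, a caudal homeobox factor of trophectoderm and posterior mesoderm, was low, with 2.46 and 1.25 FPKM in treated parts against 0.333 and 0.478 (0.99 ± 0.62). Hand1 is a basic helix-loop-helix factor of trophoblast giant cells and extraembryonic mesoderm. It had 10.4 and 149 FPKM in treated parts, against 0.604 and 0.949 in untreated parts (4.54 ± 0.91, adjusted p = 0.240). Hand1 was also among the genes named for the largest excess of treated replicate 2 over replicate 1. Both treated libraries were above both untreated ones, but the level of replicate 2 was near the 103 and 143 FPKM of the TSC part with BMP4.

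Elf5, Esx1, Rhox6 and Rhox9 stood near the untreated level in treated replicate 1. Elf5, an ETS factor that maintains trophoblast stem cells, had 0.193 and 50.4 FPKM in treated parts, against 0.305 and 0.393 in untreated parts, and 197 and 224 in the TSC part with BMP4. Esx1, an X-linked placental homeobox gene, had 0.140 and 21.8 FPKM in treated parts against 0.392 and 0.432. The X-linked homeobox gene Rhox6 had 3.70 and 181 FPKM in treated parts against 3.52 and 4.85, and its neighbour Rhox9 had 1.54 and 142 against 4.61 and 1.31. In all 4, replicate 2 alone was high. Wnt7b, a ligand needed for the placenta, had 0.0612 and 11.9 FPKM in treated parts against 0.108 and 0.113. Igf2, an imprinted growth factor, had 6.46 and 214 FPKM in treated parts against 2.49 and 2.64, with both treated libraries above, and Plet1, a surface protein of trophoblast progenitors, 5.24 and 126 against 4.68 and 3.19. Phlda2, an imprinted gene that limits placental growth, had 46.8 and 207 FPKM in treated parts against 47.4 and 42.6. Tead4, a factor acting upstream of Cdx2, had 1.15 and 6.71 FPKM in treated parts against 0.30 and 0.316, with both treated libraries above. Lgals3, a galectin on the same list, went the other way within the treated pair, at 1296 and 62.2 FPKM, against 150 and 285 in untreated parts.

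With treated replicate 2 alone the difference was 5.25 for Elf5, 5.31 for Rhox9, 5.91 for Igf2, 4.70 for Plet1, 3.54 for Wnt7b and 2.56 for Tead4. Elf5, Rhox9, Igf2 and Plet1 were among the genes named for the largest excess of replicate 2 over replicate 1. These values therefore only describe treated replicate 2. Without that library the differences of Elf5, Esx1, Rhox6, Rhox9 and Wnt7b were below 0, between -0.50 and -0.065.

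Markers of differentiated trophoblast showed a smaller median of 0.42 over 11 tested genes of 19 listed, which was 0.25 with treated replicate 1 alone and 0.068 with replicate 2 alone. Of the 11, 4 did not overlap in the higher and 2 in the lower direction, beside 22.3% and 15.3% of all genes. Ascl2, needed for the spongiotrophoblast, had 1.12 and 1.73 FPKM in treated parts against 1.32 and 1.92. Genes of extraembryonic mesoderm and amnion had 10 of 10 tested members (of 18 listed) with a positive difference, a median of 0.92 and 7 not overlapping in the higher direction, beside 22.3% of all genes, with Hand1, Gata3 and Bmp4 among them. Ahnak, a large scaffold protein, had 11.9 and 9.11 FPKM in treated parts against 6.6 and 3.48. Krt7, a keratin of simple epithelia and trophoblast, had 0.349 and 14.8 FPKM in treated parts against 0.370 and 0.159. Gabrp, a marker of amnion in primates, is listed at 0 in all 4 libraries.

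**Figure D2:**
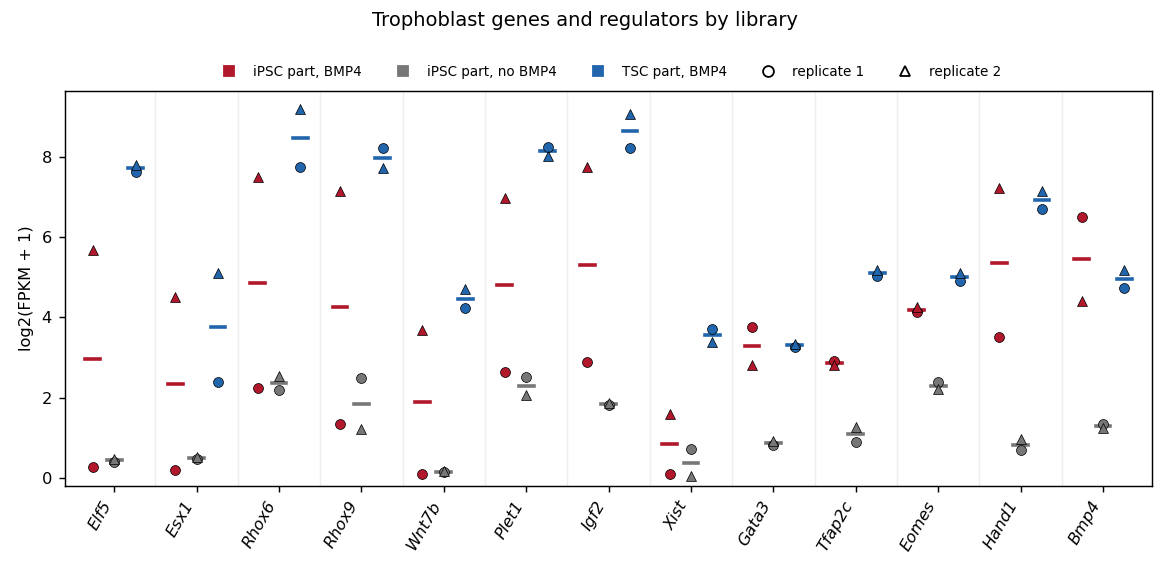
Levels of trophoblast genes, Xist and Bmp4, as log2(FPKM + 1), in the 2 treated iPSC parts (red), the 2 untreated iPSC parts (grey) and the 2 TSC parts with BMP4 (blue); circles are replicate 1, triangles replicate 2 and bars group means. From Elf5 to Xist the red triangle lies toward the blue points and the red circle nearer the grey ones, whereas for Gata3, Tfap2c, Eomes, Hand1 and Bmp4 both red points lie above both grey points.

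Several primitive streak genes were already high without BMP4, and the list diverged between the treated libraries. Of 30 listed, 21 were tested. Their median difference was 0.47, against 1.30 with treated replicate 1 alone and -0.059 with treated replicate 2 alone. Groups did not overlap in the higher direction for 5 and in the lower direction for 2, beside 22.3% and 15.3% of all genes, so the higher count is near the background. Of the 21, 13 were more than 2-fold higher in treated replicate 1 than in replicate 2, against 2 the other way, beside 5.89% and 7.30% of all genes. The 5 include Hand1 and Eomes, which are also on the trophoblast list.

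T (brachyury), the T-box factor that defines the streak, had 326 and 94.8 FPKM in treated parts, against 237 and 257 in untreated parts (-0.49 ± 0.84, limma adjusted p = 0.954). Mixl1, a homeobox factor of streak mesendoderm, had 214 and 9.40 FPKM in treated parts against 22.1 and 25.7 (0.93 ± 1.03, adjusted p = 0.904). Fgf8, the growth factor that drives cells away from the streak, had 321 and 41.2 FPKM in treated parts against 87.5 and 180 (-0.12 ± 0.87, adjusted p = 0.999). In each of these the untreated pair lay between a high replicate 1 and a low replicate 2. Wnt3, the ligand that starts the streak, had 21.5 and 6.55 FPKM in treated parts against 6.84 and 6.12, and the homeobox gene Evx1 had 12.5 and 4.61 against 3.77 and 5.27. Msgn1, a factor of presomitic mesoderm, had 45.8 FPKM in treated replicate 1 and was listed at 0 in replicate 2, against 0.941 and 1.55 in untreated parts. Wnt5a, a ligand of cell movement and axis elongation, had 14.0 and 0.0882 FPKM in treated parts against 1.19 and 1.11, and the organizer gene Gsc had 7.44 and 0.215 FPKM in treated parts, against 0.452 in untreated replicate 1 and a listed 0 in untreated replicate 2. Replicate 1 was thus above both untreated parts in all 8 of these genes and replicate 2 below both in T, Mixl1, Fgf8, Msgn1 and Wnt5a. Of these, Mixl1, Msgn1 and Wnt5a were named for the largest excess of replicate 1 over replicate 2, so the count is a description. Over all 21 tested members, 18 had a positive difference with treated replicate 1 alone and 10 with replicate 2 alone. Over all 13406 genes the numbers were 6798 and 7664.

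Most genes of mesenchymal transition were also higher in treated replicate 1 than in replicate 2, but most were not below the untreated mean in replicate 2. Of 13 tested, 11 were higher in treated replicate 1 than in replicate 2, beside 44.6% of all genes, and 2 went the other way. More than 2-fold higher in replicate 1 were 5, against 0 in replicate 2, beside 5.89% and 7.30% of all genes. The median was 0.63 with replicate 1 alone and 0.057 with replicate 2 alone. Groups did not overlap in the higher direction for 5 and in the lower direction for 2, beside 22.3% and 15.3% of all genes. Of the 3 members given next, Vim and Cdh2 are not among the 4 with the largest differences. In all 3, replicate 2 lay below both untreated parts, whereas 7 of the 13 had a positive difference with replicate 2 alone. Fn1, encoding fibronectin, had 57.3 and 4.77 FPKM in treated parts against 6.41 and 7.15. Vim, encoding vimentin, had 225 and 21.2 FPKM in treated parts against 75.1 and 47.3, and Cdh2, encoding N-cadherin, had 14.5 and 0.888 against 3.15 and 3.75. Cyp26a1, the enzyme that clears retinoic acid in the early posterior embryo, also stood out, at 123 and 1.45 FPKM in treated parts against 9.60 and 3.49. Among genes outside the lists, wide gaps of treated replicate 1 over replicate 2 were those of the cornified envelope genes Sprr2a1, Sprr2a2 and Sprr2a3, near-identical copies whose reads may be split, with Sprr2a1 at 747 and 10.6 FPKM in treated parts and 41.6 and 238 in untreated parts.

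**Figure D3:**
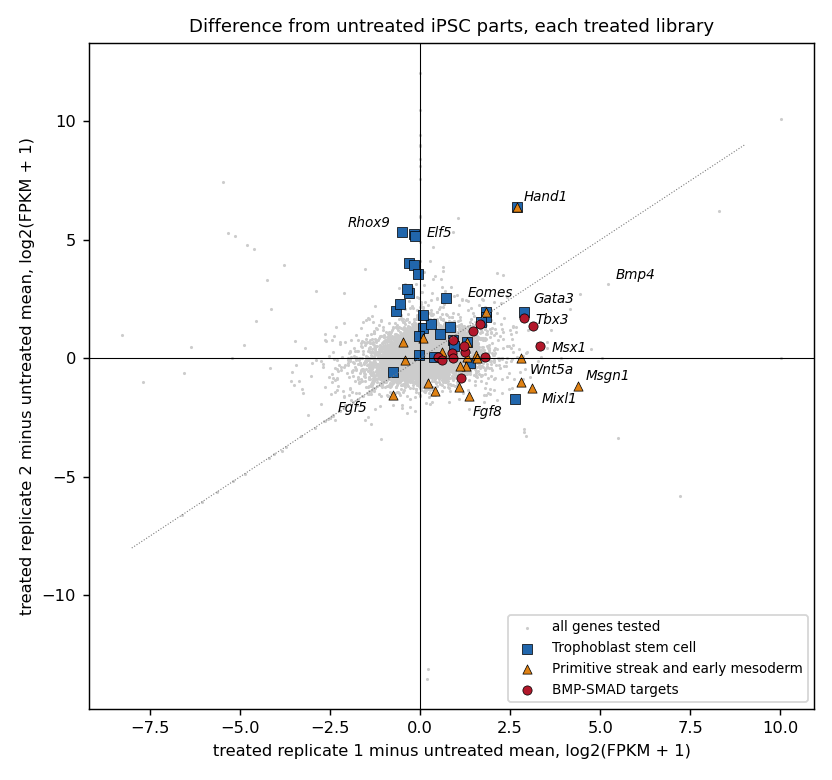
Difference from the mean of the 2 untreated iPSC parts for treated replicate 1 (horizontal) and treated replicate 2 (vertical), both on the log2(FPKM + 1) scale, for all 13406 genes tested (grey) with 3 gene lists marked. The dotted line marks equal differences; both axes share the same untreated mean, so points lie along it in part for that reason. Trophoblast stem cell genes (blue squares) spread upward, streak genes (orange triangles) to the right, and all BMP-SMAD targets (red circles) lie below the line.

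Primordial germ cell genes, which BMP4 induces in the epiblast, had a median of 0.43 over 13 tested of 15 listed (1.35 with treated replicate 1 alone, -0.18 with replicate 2 alone). Prdm1, the repressor that starts the germ line, had 4.29 and 0.815 FPKM in treated parts against 0.561 and 1.21. For 2 members the groups did not overlap in the higher direction and for 1 in the lower, which is below the 22.3% and 15.3% of all genes.

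Core pluripotency factors did not separate the groups. Pou5f1 (Oct4) had 49.5 and 112 FPKM in treated parts, against 71.5 and 80.9 in untreated parts (-0.027 ± 0.65), and Nanog had 24.4 and 36.3 against 34.7 and 33.4 (-0.18 ± 0.53). Sox2 was low in all 4 libraries, at 0.281 and 3.34 FPKM in treated parts against 1.02 and 0.514. In each of the 3, treated replicate 1 was below and treated replicate 2 above both untreated parts. Of the 20 genes of the core and naive list, 13 had a positive difference and 6 did not overlap in the higher direction against 2 in the lower, beside 22.3% and 15.3% of all genes. The median was 0.39, but -0.041 with treated replicate 1 alone and 0.49 with replicate 2 alone. Dppa5a, a germ line and naive-state RNA-binding protein, had 1936 and 2975 FPKM in treated parts against 345 and 1121 (1.95 ± 1.31, limma adjusted p = 0.789), and Zfp42 (Rex1), a naive-state zinc finger gene also on in trophoblast, had 5.39 and 18.9 against 3.65 and 2.47 (1.49 ± 0.41, adjusted p = 0.335). Both lay above the untreated pair in both treated libraries.

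Formative and primed epiblast genes leaned lower. Of 19 tested, 13 had a negative difference, and the groups did not overlap for 6 in the lower direction and 0 in the higher, beside 15.3% and 22.3% of all genes. The median was -0.23, with -0.74 for treated replicate 1 alone and -0.39 for replicate 2 alone. Fgf5, the classic epiblast growth factor, had 0.593 and 0.592 FPKM in treated parts, against 13.5 and 4.55 in untreated parts (-2.50 ± 0.47, adjusted p = 0.240), and the treated replicates were almost equal. Pim2, a survival kinase, had 18.8 and 154 FPKM in treated parts against 250 and 211 (-2.06 ± 0.79, adjusted p = 0.523), and Slc7a3, an arginine transporter, 9.06 and 38.0 against 61.5 and 41.0. Tcf15, a factor of cells leaving the naive state, was listed at 0 in treated replicate 1 and at 0.294 FPKM in replicate 2, against 1.23 and 1.17. All 4 were below the untreated parts in both treated libraries. Otx2, a formative and anterior homeobox factor, was not, with 1.30 and 7.91 FPKM in treated parts against 5.04 and 3.70.

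The Nodal pathway, which acts with BMP in the epiblast, had a median of 0.0049 over 11 tested genes of 14 listed, which turned to -0.091 with upper quartile rescaling, -0.042 with quantile normalization, -0.027 with a pseudocount of 0.1 and -0.013 with treated replicate 1 alone. Nodal had 55.9 and 61.5 FPKM in treated parts against 61.5 and 51.7, and its co-receptor Tdgf1 had 162 and 123 against 129 and 95.2. For Nodal the groups overlapped. Targets of FGF-ERK signalling had a median of 0.26 over 18 genes, or 0.40 with treated replicate 1 alone and 0.10 with replicate 2 alone. Of the 18, 5 did not overlap in the higher and 3 in the lower direction, close to the 22.3% and 15.3% of all genes. Fos, an immediate early factor, had 19.9 and 25.7 FPKM in treated parts against 6.8 and 3.58 (1.98 ± 0.57, limma adjusted p = 0.353), and Phlda1 had 17.1 and 9.15 against 3.06 and 3.54 (1.66 ± 0.45, adjusted p = 0.335). Egr1, another immediate early factor, was lower, at 9.53 and 8.11 FPKM in treated parts against 19.6 and 19.9 (-1.08 ± 0.49, adjusted p = 0.619). The differences of Fos and Egr1 thus had opposite signs, and neither passed the threshold.

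Genes of glycolysis and the hypoxia response leaned lower in both treated libraries. Of 24, 16 had a negative difference and 13 did not overlap in the lower direction, against 1 in the higher, beside 15.3% and 22.3% of all genes. The median was -0.30, and it was -0.37 with treated replicate 1 alone and -0.26 with replicate 2 alone. Pgk1, phosphoglycerate kinase, had 289 and 242 FPKM in treated parts, against 510 and 444 in untreated parts (-0.85 ± 0.21, adjusted p = 0.292). Slc2a1, the glucose transporter GLUT1, had 110 and 130 FPKM in treated parts against 214 and 228 (-0.88 ± 0.27, adjusted p = 0.377). Gapdh had 3215 and 3431 FPKM in treated parts against 4449 and 5377, and Aldoa, an aldolase, had 839 and 763 against 1186 and 1183. In these 4 enzymes and transporters every treated library was below every untreated one. Bnip3, a hypoxia-induced mitophagy gene, had 68.6 and 19.6 FPKM in treated parts against 87.8 and 79.2.

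Among p53 targets, Sesn2, a stress gene that restrains mTORC1, had 14.2 and 13.7 FPKM in treated parts against 5.85 and 6.75 (1.03 ± 0.33, limma adjusted p = 0.396), while Cdkn1a, the cell cycle inhibitor p21, had 301 and 259 against 264 and 314; the median of 17 genes was 0.27, or 0.089 with treated replicate 1 alone and 0.20 with replicate 2 alone. Cell cycle genes had a median of -0.043 over 24, which was -0.16 with treated replicate 1 alone and 0.16 with replicate 2 alone. Epithelial genes had a median of 0.21 over 17, against 0.091 and -0.017 with replicate 1 or 2 alone, so neither list has a stable direction. Krt18, a keratin of simple epithelia, had 170 and 240 FPKM in treated parts against 75.7 and 119, whereas Sprr1a, a cornified envelope gene, had 4.68 and 0.127 against 8.01 and 15.1. Of 8 endoderm genes tested, 2 did not overlap in the higher and 2 in the lower direction, beside 22.3% and 15.3% of all genes. The 2 higher ones, Foxa2 and Gata4, were low. Foxa2 had 0.633 and 0.648 FPKM in treated parts against 0.423 and 0.197, and Gata4 0.972 and 0.549 against 0.311 and 0.253, while Sox17, too low to test, had 0.0663 and 0.871 FPKM in treated parts and was listed at 0 in both untreated parts. Only 8 of 21 endoderm genes, 6 of 25 Hox genes, 8 of 16 blood and endothelial genes and 3 of 15 neural genes could be tested, and their medians have no settled direction or size. The endoderm median was 0.11, or -0.021 with quantile normalization, and the neural one 0.29, or 1.43 with a pseudocount of 0.1. The Hox median was 0.29, against 0.84 with treated replicate 1 alone and -0.10 with replicate 2 alone, and the blood and endothelial one 0.043, against -0.12 with replicate 1 alone and 0.14 with replicate 2 alone.

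**Figure D4:**
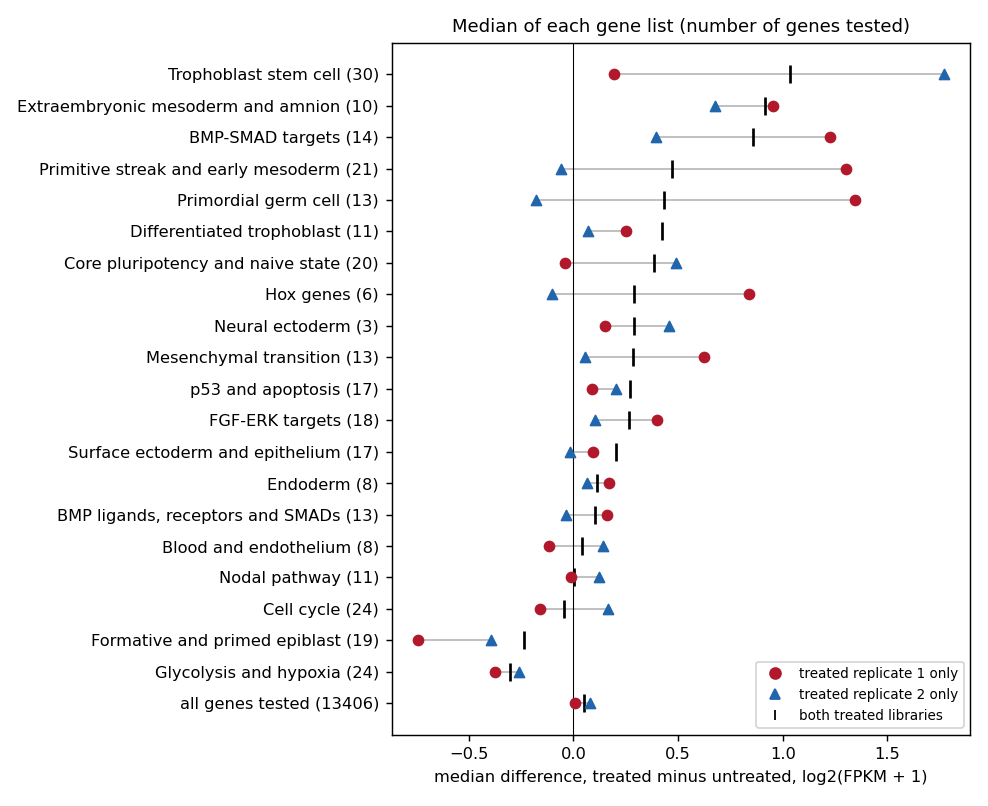
Median difference, treated minus untreated, on the log2(FPKM + 1) scale, for each gene list (number of genes tested in brackets) and for all genes tested, with treated replicate 1 only (red circles), treated replicate 2 only (blue triangles) and both (black ticks). The 2 treated libraries give close medians for glycolysis and hypoxia (-0.37 and -0.26) and lie far apart for trophoblast stem cell (0.19 and 1.77) and streak genes (1.30 and -0.059).

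Some of the widest gaps between the groups lay outside these lists. Higher in treated parts was Aldh16a1, an aldehyde dehydrogenase family member, with 16.7 and 14.7 FPKM against 4.86 and 4.09 (1.61 ± 0.24, limma adjusted p = 0.0847). Aqp3, a channel for water and glycerol, had 25.8 and 7.18 FPKM in treated parts against 0.175 and 0.287 (3.59 ± 0.80, adjusted p = 0.242). Cited1, a transcriptional co-regulator of early embryo and placenta, had 45.3 and 51.6 FPKM in treated parts against 7.15 and 8.48 (2.49 ± 0.83, adjusted p = 0.428). Unlike Aqp3, the treated replicates of Aldh16a1 and Cited1 were close to each other. Tnnt1, a slow skeletal muscle troponin, had 13.4 and 14.3 FPKM in treated parts against 1.66 and 2.49, and Pdgfa, a growth factor ligand, had 13.4 and 14.7 against 3.63 and 2.74 (1.85 ± 0.40, adjusted p = 0.240). Snrnp70, a protein of the U1 spliceosome particle, had 45.9 and 46.0 FPKM in treated parts against 14.3 and 10.8.

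Lower in treated parts was Slpi, a secreted protease inhibitor, with 5.70 and 5.44 FPKM against 216 and 41.3 (-3.87 ± 0.93, limma adjusted p = 0.275). Ccl20, a chemokine, had 3.76 and 3.67 FPKM in treated parts against 26.6 and 25.5 (-2.52 ± 0.52, adjusted p = 0.240). Madcam1, an adhesion molecule, had 2.92 and 5.86 FPKM in treated parts against 23.5 and 26.9 (-2.33 ± 0.48, adjusted p = 0.240). These 3, like Fgf5, were several-fold below both untreated parts in each treated library. Car3, a carbonic anhydrase, had 7.38 and 2.15 FPKM in treated parts against 17.9 and 24.0, and Nt5e (CD73), an enzyme that makes adenosine, had 7.63 and 7.89 against 19.9 and 20.7. Psors1c2 had 79.8 and 113 FPKM in treated parts against 315 and 388.

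The response was then set against that of iPSC grown alone, to ask whether assembly with TSC changed it. The interaction, the BMP4 difference in the assembled part minus that in iPSC alone, was called for 3 of 13406 genes, 2 above 0 (0.0149%) and 1 below (0.00746%). At an unadjusted p under 0.05 there were 328 above (2.45%) and 208 below 0 (1.55%). All 3 are short genes listed at 0 in 14 of the 16 libraries, so each passed the filter only through the 1 group where it is high, and its call is given as a description. Besides Gm24151 (7.25), they are Snord118, a small nucleolar RNA that was listed at 0 in the assembled parts and in iPSC alone with BMP4 and had 204 and 66.6 FPKM in iPSC alone without it (6.88), and Gm14870, a processed pseudogene with 35.6 and 67.7 FPKM in iPSC alone with BMP4 and a listed 0 in iPSC alone without it and in the assembled parts (-5.65). For 2 of the 3, the value thus reflects iPSC alone.

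In iPSC alone, limma called 3 genes higher with BMP4 and 5 lower (0.0224% and 0.0373%). Pathway targets were mostly higher there too. The median over the 14 BMP-SMAD targets was 0.86 in the assembled part and 0.99 in iPSC alone, where 13 of 14 differences were positive, and the median interaction was -0.49 with none called. Id1 had 303 and 332 FPKM in iPSC alone with BMP4, against 44.9 and 65.2 without it, so untreated assembled parts, at 177 and 174, already stood above untreated iPSC alone. The interaction of Id1 was -2.06 ± 1.24 (limma adjusted p = 1.0), which leaves a wide range of values.

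Streak genes were also read in both settings. T had 172 and 270 FPKM in iPSC alone with BMP4, against 44.6 and 39.6 without it, next to 326 and 94.8 in treated and 237 and 257 in untreated assembled parts, with an interaction of -2.82 ± 1.19 (adjusted p = 1.0). Mixl1 had 18.6 and 70.3 FPKM in iPSC alone with BMP4 and 1.09 and 1.59 without it, and its interaction was -3.08 ± 1.46 (adjusted p = 1.0). For both, untreated assembled parts were above untreated iPSC alone. Hoxb1, an anterior Hox gene first active in the streak, had 4.48 and 3.82 FPKM in treated against 5.97 and 12.9 in untreated assembled parts, and 2.75 and 6.44 with BMP4 against 2.08 and 1.02 without it in iPSC alone (interaction -2.02 ± 0.57, adjusted p = 0.994). These differences between the settings did not pass the threshold.

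Genes of trophoblast and epiblast gave interactions of both signs. Gata3 had 1.07 and 6.42 FPKM in iPSC alone with BMP4, against 0.163 and 0.227 without it, and an interaction of 0.70 ± 0.68 (limma adjusted p = 1.0). Hand1 had 2.78 and 16.8 FPKM in iPSC alone with BMP4, against 1.33 and 0.696 without it (2.50 ± 1.29, adjusted p = 1.0). Bmp4 had 0.876 and 16.5 FPKM in iPSC alone with BMP4 and 1.02 and 0.925 without it (2.63 ± 1.16, adjusted p = 1.0). For all 3 genes, replicate 2 of iPSC alone with BMP4 was the higher one, and for Bmp4 replicate 1 was not above the untreated level. That replicate 2 also had 61.6 FPKM of Rhox6 and 33.6 of Rhox9, but 0.283 of Elf5. Fgf5 had 2.94 and 4.01 FPKM in iPSC alone with BMP4, against 44.3 and 45.9 without it, a difference of -3.38 ± 0.47 that passed the threshold there (adjusted p = 0.0181), while its interaction was 0.88 ± 0.67 (adjusted p = 1.0).

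Among genes with a group mean of at least 5 FPKM and no overlap of the assembled libraries, leaving out predicted and small RNA names, the smallest interaction p belonged to Spon1, Aldh16a1, Plekhf2 and Nt5e. Spon1, a secreted matrix protein, had 0.0324 and 0.656 FPKM in treated against 0.874 and 0.716 in untreated assembled parts, and 0.533 and 0.175 with BMP4 against 5.83 and 4.65 without it in iPSC alone (1.76 ± 0.38, limma adjusted p = 0.524). Aldh16a1 had 13.4 and 11.0 FPKM in iPSC alone with BMP4 and 13.6 and 9.51 without it, so that its difference was seen in the assembled part (interaction 1.52 ± 0.35, limma adjusted p = 0.583). Plekhf2, an endosomal protein, had 43.6 and 47.4 FPKM in treated against 67.0 and 73.9 in untreated assembled parts, and 95.2 and 87.9 with BMP4 against 42.2 and 61.4 without it in iPSC alone (-1.45 ± 0.33, adjusted p = 0.584). Nt5e had 14.3 and 9.19 FPKM in iPSC alone with BMP4, against 5.45 and 8.10 without it (-1.98 ± 0.48, adjusted p = 0.666).

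**Figure D5:**
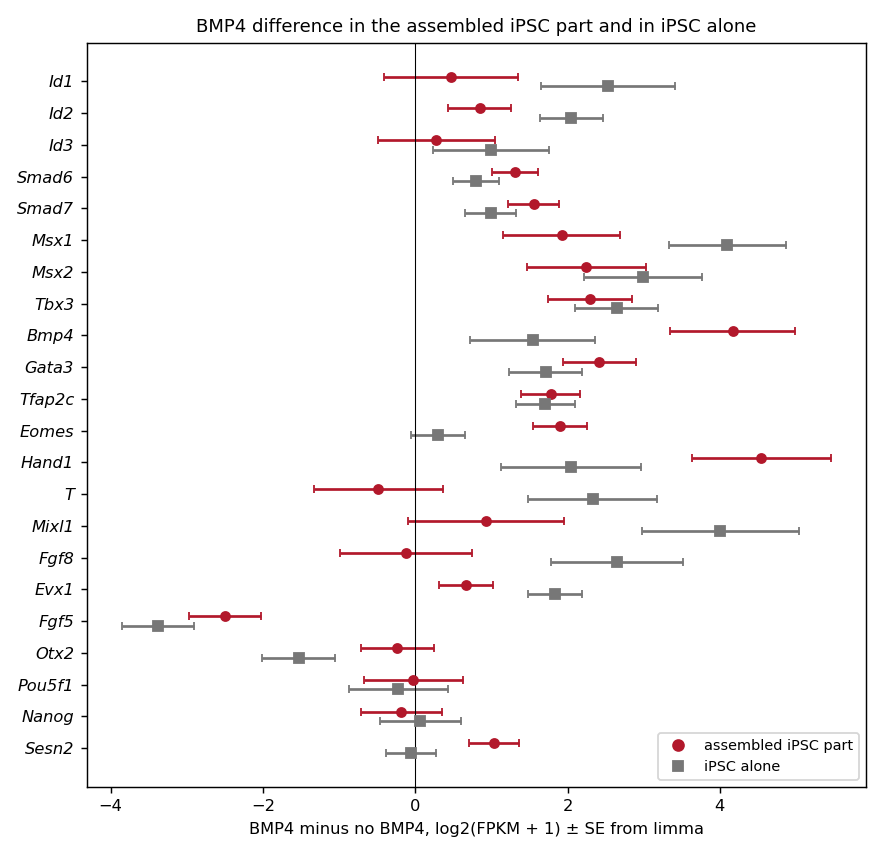
BMP4 difference of 22 genes on the log2(FPKM + 1) scale, with the standard error from limma, in the assembled iPSC part (red circles) and in iPSC alone (grey squares). T, Mixl1, Fgf8 and Id1 lie further right in iPSC alone and Eomes, Bmp4 and Hand1 further right in the assembled part; no interaction of these genes passed the threshold.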

How the data were processed

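RNA was measured in 16 libraries, 2 in each of 8 groups taken from the sample titles. The deposited table gives 31663 gene symbols with FPKM, which the authors computed. CASAVA, TopHat2, mm9 and hg19 are named in the submitters' processing notes without versions or roles; how FPKM were calculated, on which annotation and after which filters, is not given in the sources used here. Depth is unknown, and how reads of paralogs or overlapping genes were shared out cannot be checked.

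A gene was tested if 2 or more libraries had 1 FPKM or more, which left 13406. The test was limma 3.58.1 (R 4.3.3) on log2(FPKM + 1), with 8 group means and an eBayes trend, 8 residual degrees of freedom, two-sided p-values and Benjamini-Hochberg adjustment over every gene tested at 0.05. It was also run on simulated data with normal noise and the same spread of a gene in every library. That setting does not cover a pair of libraries as far apart as the treated pair. Symbols that occur more than once (12 entries) were kept apart. Differences between the 2 treated libraries are descriptions.

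The comparison, the 20 gene lists and the rules were chosen with earlier results of these data known. Named genes include list members with the largest differences or set for their role. Others are up to 15 per direction with the smallest p or widest gap (groups not overlapping, a group mean of at least 5 FPKM). Up to 15 with the largest difference between the treated libraries were added. Predicted and small RNA names were left out of these picks. Genes called by the test, and a few marked as such, were named after their values were seen. Further named genes come under none of these rules and serve as examples only. Among them are Gapdh, Aldoa, Vim, Cdh2, Wnt7b, Tead4, Hey1, Hhex, Bmper, Ahnak and Ascl2. Promoters came from RefSeq (GRCm38.p6) and the small RNA from GENCODE M21, matched by symbol. List genes without an entry in the table are not analysed here. The alternatives tried changed the pseudocount (0.1), dropped the filter, rescaled the libraries (quantile or upper quartile), weighted them by quality, added a replicate block, fitted only the groups compared, or left out each library. A block within the 4 libraries, same-numbered or crossed, was added after seeing the data. Tables and figures were made in Python 3.11.15 (numpy 2.4.6, matplotlib 3.10.9, pandas 2.3.3).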

Additional observations from a re-analysis of the deposited data

Results flagged for a closer look

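The BMP4 difference in the assembled iPSC part minus that in iPSC alone passed the threshold in limma for 3 genes. It was 7.25 for Gm24151, 6.88 for Snord118 and -5.65 for Gm14870, on the log2(FPKM + 1) scale. The annotated lengths of these genes are 141, 135 and 156 bases, and each is listed at 0 in 14 of the 16 libraries, so that it passed the filter on low values only through the 1 group where it is high and its p rests on groups that are all 0. In a fit of only the groups compared, the limma adjusted p was 0.170 for Gm24151 and 0.0703 for Snord118.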

How the results depend on the processing

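In the comparison of treated with untreated iPSC parts, the counts of genes higher and lower were 2 and 0 with a pseudocount of 0.1, 4 and 7 without a filter, 2 and 1 with quantile normalization, and 1 and 0 with upper quartile rescaling, with quality weights and with only the groups compared, where the gene called was not Gm24151 (limma adjusted p 0.733 there). Leaving out 1 library at a time gave 1 to 42 higher and 0 to 13 lower. For the interaction, called above and below 0 for 2 and 1 genes, the counts were 3 and 2 with a pseudocount of 0.1, 6 and 7 without a filter, 4 and 2 with quality weights and 1 and 2 with only the groups compared, and 2 to 11 and 1 to 3 with 1 library left out. Genes more than 2-fold apart in the treated pair numbered 3357 with a pseudocount of 0.1, against 1768. The median over all genes was 0.051 as deposited, -0.016 with quantile normalization and -0.021 with upper quartile rescaling. Of the named genes, Nodal turned to -0.049 with upper quartile rescaling, and no other sign turned outside the fits that leave out a library. Leaving out a library turned a sign 28 times, and the lowest and highest values over these fits were -0.049 to 0.61 for Id4, -0.67 to 2.02 for Bmp8b, -1.48 to 0.42 for Fst, -0.18 to 5.25 for Elf5, -0.31 to 4.01 for Esx1, -0.13 to 5.15 for Rhox6, -0.50 to 5.31 for Rhox9, -0.065 to 3.54 for Wnt7b, -1.37 to 0.40 for T, -1.26 to 3.11 for Mixl1, -1.59 to 1.35 for Fgf8, -1.16 to 4.39 for Msgn1, -0.98 to 2.80 for Wnt5a, -0.61 to 0.56 for Pou5f1, -0.46 to 0.093 for Nanog, -0.45 to 1.31 for Sox2, -1.21 to 0.74 for Otx2, -0.067 to 0.18 for Nodal, -0.032 to 1.51 for Prdm1, -0.43 to 2.91 for Fn1, -1.45 to 1.90 for Vim, -1.23 to 1.80 for Cdh2, -1.50 to 4.17 for Cyp26a1 and -0.22 to 1.63 for the interaction of Gata3. The cause of these shifts was not tested beyond the values of each library. Depth is unknown, and 2 libraries per group limit what can be called.

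Libraries with the same replicate number did not deviate together (r = -0.10 between treated and untreated parts, 2 pairs), and no label pairs them. A replicate block over all libraries gave 1 gene higher and 0 lower, and 2 and 1 for the interaction. Within the 4 libraries alone, the block gave 0 and 0, and the crossed pairing, chosen after seeing the data, 1 and 0.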

Other observations

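Genes outside the lists also differed within the treated pair or between the groups, and none of those given here passed the threshold with both libraries. Pmp22, a myelin and epithelial membrane protein, had 65.1 and 2.25 FPKM in treated parts, against 1.12 and 1.89 in untreated parts. Fabp7, a fatty acid binding protein, had 61.7 and 3.56 FPKM in treated parts, against 6.84 and 15.1 in untreated parts. In both, treated replicate 1 was above the other 3 libraries. Tinagl1, a matrix glycoprotein, had 2.32 and 45.8 FPKM in treated parts, against 2.87 and 0.937 in untreated parts, and 74.5 and 97.0 in the TSC part with BMP4. Trap1a, an X-linked gene, had 2.23 and 125 FPKM in treated parts, against 9.14 and 7.53 in untreated parts, and 262 and 320.0 in the TSC part with BMP4. For these genes replicate 2 was the high treated library. Gsn, encoding the actin-severing protein gelsolin, had 19.2 and 15.2 FPKM in treated parts, against 4.15 and 4.27 in untreated parts, and both treated libraries were above.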
